A study of Caenorhabditis elegans with 2 samples.

Results

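The small heat shock proteins are a family of small chaperones built around an alpha-crystallin domain. Poly(A) tail lengths of their genes were described in L4 larvae of wildtype N2 (Bristol) C. elegans. Members were taken by gene symbol from a list of 10 names, and 9 of them had a row among the 13601 genes of the deposited table: hsp-12.1, hsp-12.2, hsp-12.3, hsp-16.1, hsp-16.2, hsp-16.41, hsp-25, hsp-43 and sip-1. The member hsp-12.6, known as a target of the FOXO factor DAF-16, was not analysed here. Of the 9 genes, 8 had at least 100 tags, the minimum used here for comparisons with other genes, and hsp-12.3 had 17 tags. A tag is 1 poly(A) tail call assigned to a gene.

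All samples belong to 1 group, of 2 biological replicates. Per the labels, these were whole, untreated animals kept at 25 °C with OP50 bacteria as food, and RNA was taken at mid-L4, the 29 h time point. Tails were measured by mTAIL-seq, a sequencing method that reads the length of each poly(A) tail from the fluorescence signal of the run. The table pools both replicates, so no value carries a replicate error, no test between conditions exists, and each interval covers counting error of the tags only. Tags of PCR copies, if present, would make these intervals too narrow.

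Small heat shock proteins hold unfolding proteins in a state from which other chaperones can refold them, and they work without ATP. In C. elegans the hsp-16 genes are the classical heat-inducible members, driven by the heat shock factor HSF-1. The hsp-12 genes encode the smallest proteins of the family, and Hsp12.2 and Hsp12.3 are known to lack chaperone activity in vitro. The genes hsp-25 and hsp-43 are known as members that heat does not induce, with HSP-25 protein in muscle attachment structures and HSP-43 protein in the vulva and spermatheca. SIP-1 is known as a chaperone of oocytes and embryos that acts best at acidic pH. A poly(A) tail is added to most mRNAs in the nucleus, shortens in the cytoplasm and is bound by poly(A)-binding protein.

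The table held 17376490 tags in all, and genes ranged from 10 to 322583 tags. The 8803 genes with at least 100 tags had a median tag number of 405. All 14 tissue marker genes looked up had a row, among them the muscle myosin genes unc-54 (38818 tags) and myo-3 (3222 tags), the intestinal esterase gene ges-1 (954 tags) and the major sperm protein gene msp-40 (2445 tags). The yolk genes of adults vit-2 and vit-6 had 110 and 73 tags.

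The 9 small heat shock protein genes together held 20703 tags, 0.119% of the total. The most abundant members were hsp-25 and hsp-12.2. hsp-25 had 6981 tags, or 402 per 1000000 listed tags, and hsp-12.2 had 5944 tags, or 342 per 1000000. Among the heat-inducible members, hsp-16.1 had 2749 tags (158 per 1000000), hsp-16.2 had 566 (32.6 per 1000000) and hsp-16.41 had 107 (6.16 per 1000000). sip-1 had 2165 tags (125 per 1000000), hsp-43 had 1505 (86.6 per 1000000), hsp-12.1 had 669 (38.5 per 1000000) and hsp-12.3 had 17 (0.978 per 1000000). Tags are read at the 3′ end of the RNA, so these levels were not divided by gene length. Among all genes with at least 100 tags, hsp-25 lay at percentile 96.3 for tag number, hsp-16.1 at 90.9 and hsp-16.41 at 2.32. The heat-inducible Hsp70 gene hsp-70 (C12C8.1) had 13 tags, fewer than any of the hsp-16 genes. Of 2 further Hsp70 genes, F44E5.5 had 18 tags, but F44E5.4 had 563, close to hsp-16.2 and more than hsp-16.41.

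Tail lengths of the small heat shock protein genes lay mostly below those of other genes, and they spread widely within the family. The median of the 8 member medians was 66.5 nt, against 80 nt over all 8803 genes, whose middle 50% lay between 69 and 91 nt. Of the 8 members, 7 had a 95% interval of the median wholly below 80 nt and 0 had an interval wholly above it; the interval of hsp-12.1 included it. Over all 8803 genes 36.7% had intervals below and 35% above. These shares were not matched for tag number, and genes with more tags had shorter tails, as given further below. By a stricter size rule, a median at least 20 nt below 80 nt with the interval on the same side, 3 of 8 members were short (hsp-16.41, sip-1 and hsp-16.1), where 11.8% of all genes were. With 0 intervals above 80 nt, 0 members met the matching rule on the long side. hsp-16.1, at 59 nt, lay 1 nt inside the size rule. With means in place of medians, or a minimum of 400 tags, the interval of hsp-16.2 included the centre over genes and hsp-16.1 was not short. Set against the median over all tags, 58 nt, 2 of 8 members lay below and 5 above. Most genes also had medians above 58 nt, since the middle 50% of gene medians began at 69 nt. The share of intervals above it over all genes was not counted. The members were not a random draw from the table and no test was run on these counts.

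**Figure D1:**
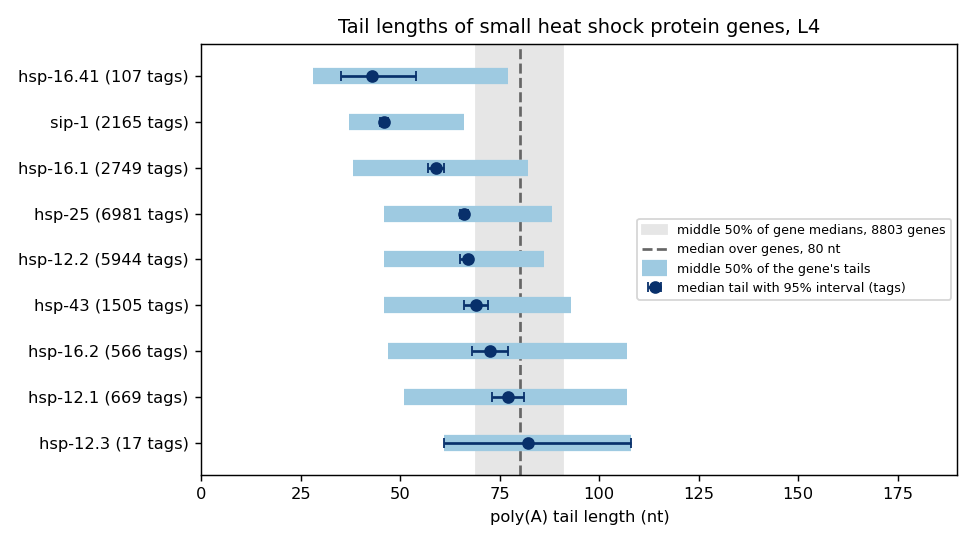
Median poly(A) tail length (nt) of the 9 small heat shock protein genes, ordered from the shortest, with the 95% interval over tags as error bars and the middle 50% of each gene's tails as light bars. The dashed line is the median over 8803 genes, 80 nt, and the grey band the middle 50% of gene medians; the medians of 8 members lie to the left of the line, and that of hsp-12.3, with 17 tags, lies at 82 nt.

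The hsp-16 genes covered much of the family's range. hsp-16.41 had the shortest median of the family, 43 nt (95% interval 35 to 54 nt, 107 tags), at percentile 1.39 of all gene medians. hsp-16.1 had a median of 59 nt (57 to 61 nt, 2749 tags), at percentile 10.4. hsp-16.2 had a median of 72.5 nt (68 to 77 nt, 566 tags), at percentile 32.1. The 3 intervals did not overlap, so these genes differed from each other beyond counting error, if tags are taken as independent. Tail lengths were not evenly mixed along the deposited lists of these genes, as given under Other observations. The intervals do not cover this.

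In C. elegans the hsp-16 genes lie in divergent pairs that share the region between them, and in RefSeq's table for WBcel235 no annotated gene starts between the genes of either pair used here. The pair of hsp-16.2 is hsp-16.41. The pair of hsp-16.1 is hsp-16.48, an alpha-crystallin family gene (T27E4.3) outside the member list, with 2419 tags. In both pairs the genes had different tail lengths. In the first pair hsp-16.41 was at 43 nt, against 72.5 nt in hsp-16.2. In the second pair hsp-16.48 was at 45 nt (43 to 46 nt), against 59 nt in hsp-16.1. hsp-16.41 and hsp-16.48, from different pairs, had overlapping intervals, although their tag numbers were far apart. Their cumulative distributions differed by at most 8.4 percentage points, and those of hsp-16.41 and hsp-16.2 by 30.2 points, at 40 nt. With 107 tags in hsp-16.41 (interval of the median 35 to 54 nt), a small difference from hsp-16.48 was not detectable at this depth. For hsp-16.1 and hsp-16.48 the largest gap was 19.1 points, at 53 nt. hsp-16.1 and hsp-16.48 each have a near-identical copy, hsp-16.11 and hsp-16.49, which were looked up and had no row. The division of reads among the copies is uncertain, and each value may stand for a pair of genes.

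The shapes of the hsp-16 distributions also differed. In hsp-16.41, 30.8% of tails were under 30 nt (95% Wilson interval 22.9 to 40.1%), at percentile 99.8 of all genes, whose median share was 6.34%. At the same time 17.8% of its tails exceeded 100 nt (11.7 to 26.1%). Its mean, 56.7 nt, exceeded its median by 13.7 nt, at percentile 98.1. Tails under 30 nt made up 23.2% in hsp-16.48 (21.6 to 25%), 13.6% in hsp-16.1 (12.4 to 14.9%) and 7.95% in hsp-16.2 (5.99 to 10.5%). hsp-16.2 lay at the other end of the range of the hsp-16 genes. Of its tails 28.6% exceeded 100 nt (25.1 to 32.5%), at percentile 41.5 of all genes. Those over 150 nt made up 9.19% (7.07 to 11.8%), at percentile 71. The longest callable value, 231 nt, held 2.83% of its tails (1.75 to 4.54%), at percentile 92.9, against a median of 0.408% over genes. Tails at 231 nt are lower bounds of the true length. In hsp-16.41, 0 of 107 tails exceeded 150 nt, which allows a share of up to 2.8% by a limit of 3 counts, or 3.47% by the Wilson interval.

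**Figure D2:**
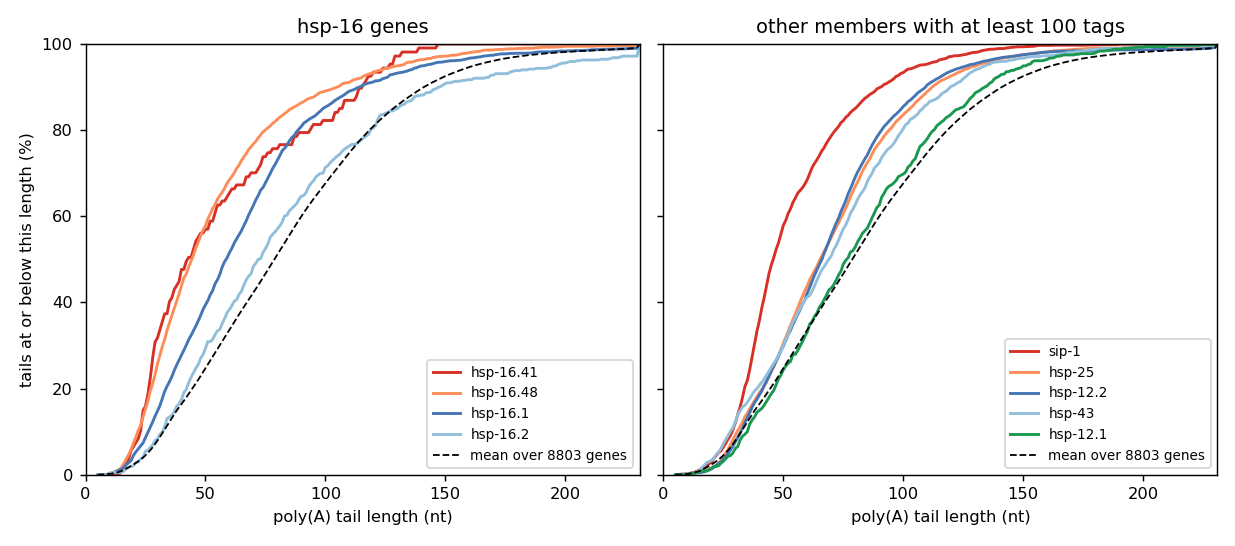
Cumulative share of tails (%) at or below each length (nt) in the hsp-16 genes, with hsp-16.48 added from outside the member list (left), and in the other members with at least 100 tags (right); the dashed line is the mean over 8803 genes. hsp-16.41 and hsp-16.48 run together on the short side, and hsp-16.2 has the longest upper end of the hsp-16 genes. sip-1 climbs most steeply, with 45.3% of its tails between 30 and 49 nt.

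sip-1 had short tails in a narrow range of lengths. Its median was 46 nt (45 to 47 nt, 2165 tags), at percentile 2.2 of all genes, and the middle 50% of its tails lay between 37 and 66 nt. This width of 29 nt was at percentile 2.45 of all genes, whose median width was 54 nt. Divided by the median tail, the width was 0.63, at percentile 34.7, against a median of 0.685 over genes, so the range was not narrow for its length. The mean of sip-1, 54.2 nt, exceeded its median by 8.21 nt, at percentile 85.3. The tallest 10 nt bin of its distribution, 30 to 39 nt, held 22.8% of its tails, and 45.3% lay between 30 and 49 nt, against a median of 15.2% over genes. Tails over 100 nt made up 6.65% (5.68 to 7.78%), at percentile 2.99. sip-1 and hsp-16.41 had overlapping intervals of the median but unlike shapes. hsp-16.41 had 30.8% of tails under 30 nt and sip-1 had 10.5% (9.31 to 11.9%).

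The muscle-associated hsp-25 and the small hsp-12.2, the most abundant members, had nearly the same median tail. hsp-25 had a median of 66 nt (65 to 67 nt) and hsp-12.2 of 67 nt (65 to 67 nt), and their cumulative distributions differed by at most 2.35 percentage points, the smallest gap between any pair of members. hsp-43 had a median of 69 nt (66 to 72 nt, 1505 tags), at percentile 24.8, and a largest gap of 4.9 points to hsp-25. Tails over 100 nt made up 16.43% in hsp-25 (15.6 to 17.3%), 14.5% in hsp-12.2 (13.6 to 15.4%) and 19.7% in hsp-43 (17.7 to 21.8%), all below the median of 31.8% over genes. Tails under 30 nt were more frequent in hsp-43, at 11% (9.48 to 12.64%), than in hsp-12.2, at 6.66% (6.06 to 7.32%). hsp-25 lay between, at 8.15% (7.53 to 8.82%). Thus hsp-25 had slightly more tails than hsp-12.2 in both the short and the long class, with intervals that did not overlap.

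The hsp-12 genes did not share a tail length. hsp-12.1 had the longest median of the 8 members, 77 nt (73 to 81 nt, 669 tags), with an interval above that of hsp-12.2. Of its tails 30.2% exceeded 100 nt (26.8 to 33.8%), close to the median over genes, and 5.08% were under 30 nt. hsp-12.3, the neighbour of hsp-12.6 in RefSeq's table, had a median of 82 nt over 17 tags, with an interval of 61 to 108 nt. That interval lay above those of hsp-16.41 and sip-1 and overlapped those of the other 6 members, so a difference from these 6 was not detectable at this depth.

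**Figure D3:**
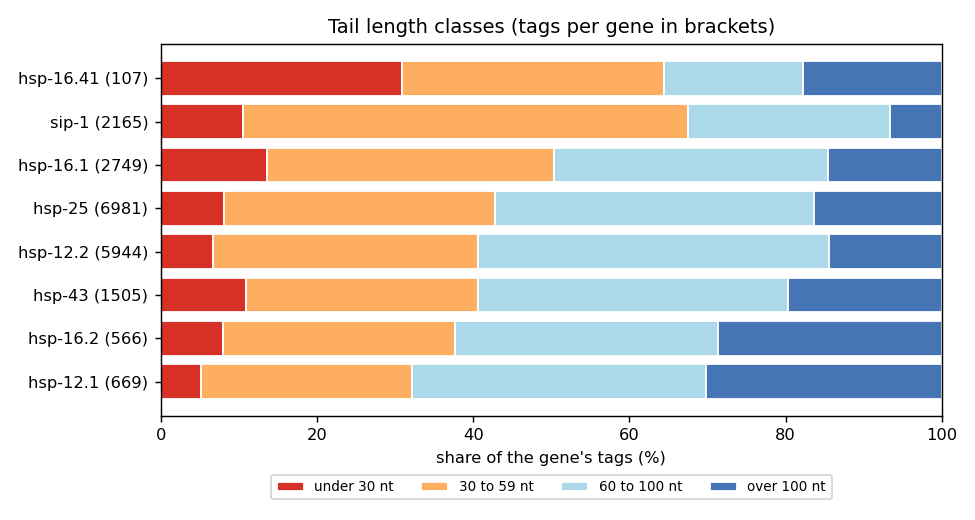
Share of each gene's tags (%) in 4 classes of tail length for the 8 members with at least 100 tags, ordered from the shortest median. The share under 30 nt is 30.8% in hsp-16.41 and 5.08% in hsp-12.1, and the share over 100 nt is 6.65% in sip-1 and 30.2% in hsp-12.1.

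In order of median, the 8 members ran hsp-16.41, sip-1, hsp-16.1, hsp-25, hsp-12.2, hsp-43, hsp-16.2 and hsp-12.1, over a spread of 34 nt. Among the 28 pairs of these members, 22 had intervals that did not overlap. The matching share over pairs of other genes was not counted, so this count does not set the family apart. Neighbours in the order were separated on both sides of hsp-16.1 only; each other gene's interval overlapped that of the next.

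Over the whole table genes with more tags had shorter tails, so each member was also set beside genes grouped by tag number. All 8803 genes were ordered by tags and divided into 10 equal groups. In the group with the most tags, 2478 to 322583, where the median of gene medians was 67 nt, hsp-12.2 lay at percentile 49.2, hsp-25 at 46.5 and hsp-16.1 at 29.3. This group is wide, and hsp-16.1, with 2749 tags, lay near its lower edge, so most genes it is set beside had more tags. In the group of sip-1 and hsp-43, with 1190 to 2473 tags and a median of 75 nt, sip-1 lay at percentile 1.14 and hsp-43 at 32.8. In the group of hsp-12.1 and hsp-16.2, with 538 to 762 tags and a median of 80 nt, hsp-12.1 lay at percentile 41.9 and hsp-16.2 at 29.6. hsp-16.41 lay at percentile 1.42 of the group with the fewest tags, 100 to 134, whose median was 86 nt. Within their groups hsp-12.2, hsp-25 and hsp-12.1 were thus near the middle, and sip-1 and hsp-16.41 were in the lowest 2%.

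**Figure D4:**
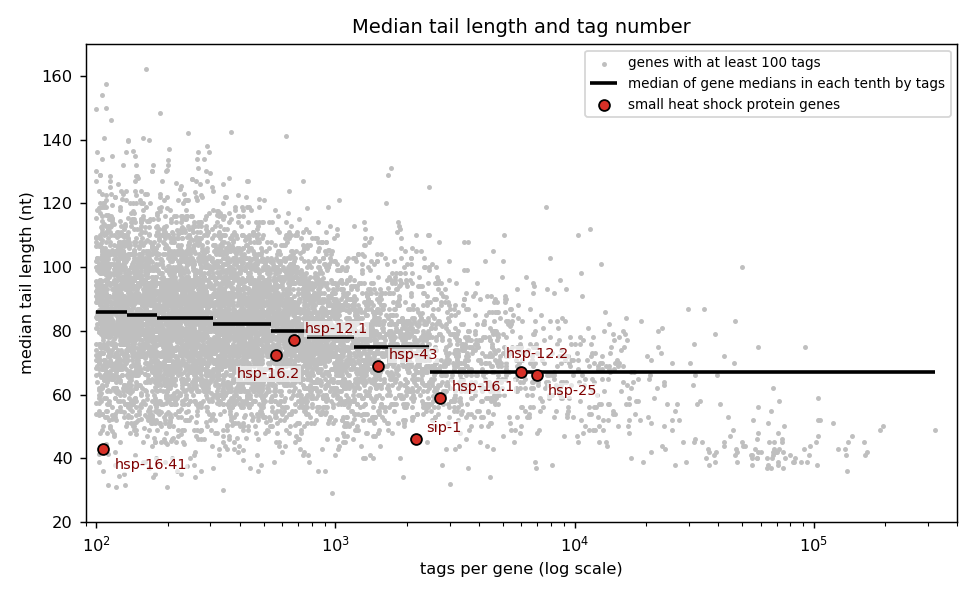
Median tail length (nt) against tags per gene (log scale) for 8803 genes (grey points), with the median of gene medians in each of 10 equal groups of genes by tags (black lines) and the 8 members with at least 100 tags (red points). sip-1, at 46 nt, and hsp-16.41, at 43 nt, lie far below the black lines, while hsp-12.2 lies on the line at 67 nt and hsp-25 just under it.

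For members with at least 1000 tags, the gene with the most similar distribution was sought outside the member list. It was the gene with the smallest largest gap between cumulative distributions, over the single pool. For hsp-43 it was hgo-1, a homogentisate oxidase gene, with a largest gap of 1.63 percentage points and a median of 69 nt. For hsp-12.2 it was epic-1, with 1.85 points and a median of 66 nt, and for hsp-25 it was vha-2, a vacuolar ATPase subunit gene, with 1.93 points and 67 nt. For hsp-16.1 it was the histone gene his-16, with 2.42 points and 60 nt. For sip-1 the most similar gene, asg-1, was further away, with 4.01 points and a median of 48 nt.

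Of 8 other alpha-crystallin family genes looked up, 4 had a row and 3 had at least 100 tags. hsp-16.48, given above, was at 45 nt. hsp-17 was at 57 nt (55 to 60 nt, 1225 tags), with 17.6% of tails under 30 nt (15.5 to 19.8%). ZK1128.7 was at 79 nt (74 to 86 nt, 339 tags), an interval that included the median over genes. Y55F3BR.6 had 37 tags, with a median of 59 nt and an interval of 50 to 80 nt.

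Genes of the heat shock pathway spanned a wider range than the small heat shock proteins themselves. All 17 looked up had a row and 14 had at least 100 tags, with a median of 70 nt over genes. Of these 14, 8 had intervals below the median over all genes, 5 above and 1 that included it. Over all 8803 genes 36.7% lay below and 35% above. The 5 genes above had 105 to 612 tags and the 8 below had 719 to 32461. Genes with more tags had shorter tails over the whole table, and the part of tag number here was not tested. The heat shock factor gene hsf-1 was the longest, at 106 nt (93 to 116 nt, 105 tags), with 53.3% of tails over 100 nt. Also above were ddl-1, whose product binds HSF-1, at 100 nt (93 to 104 nt), the FOXO gene daf-16 at 93 nt (86 to 100 nt), the BAG-domain gene unc-23 at 100 nt and the Hsp40 gene dnj-13 at 91.5 nt. Below were the cochaperone genes bag-1 at 47 nt (45 to 50 nt) and sti-1 at 49 nt (44 to 54 nt), the Hsp90 gene daf-21 at 48 nt (48 to 49 nt), the Hsp40 genes dnj-19 at 53 nt and dnj-12 at 64 nt, the Hsc70 gene hsp-1 at 57 nt, the HSF-1 binding protein gene hsb-1 at 67 nt and hsp-110 at 73 nt. The hsf-1 interval lay above those of all 8 members with at least 100 tags. The Hsp70 genes F44E5.4 and F44E5.5, which share a protein identifier so that their division of reads is uncertain, had 563 and 18 tags and medians of 84 and 130.5 nt. ddl-2 had 32 tags and a median of 85.5 nt.

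Beside the larger chaperones, the small heat shock proteins had a similar centre. Their median of 66.5 nt stood beside 65 nt in 7 subunits of the CCT chaperonin, which folds actin and tubulin, and 72.5 nt in the 10 analysed genes of a list of Hsp70, Hsp90, Hsp60 and related genes. That list overlaps the pathway list in hsp-1, hsp-110, hsp-70 and daf-21. It also holds trap-1, which in C. elegans names a translocon-associated protein gene, and its median was 73 nt without it, a value added after the data were seen. Intervals lay below the median over all genes in 7 of 8 small heat shock protein genes, 7 of 7 CCT genes and 8 of 10 genes of the larger list. Over all 8803 genes the share was 36.7%, not matched for tag number. The median tag numbers of the 3 lists were 1835, 1668 and 7008.5, against 405 over genes. Genes with more tags had shorter tails over the whole table, and the part of tag number in these counts was not tested. The CCT medians ran from 63 to 77 nt, and those of the larger list ran from 48 nt in daf-21 to 84 nt in the mitochondrial chaperone gene hsp-60. The small heat shock protein medians ran from 43 to 77 nt, wider than the CCT subunits, and no test of this difference was run. The hsp70 genes of the endoplasmic reticulum, hsp-3 and hsp-4, were at 74 and 59 nt, and the mitochondrial Hsp70 gene hsp-6 was at 80 nt.

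**Figure D5:**
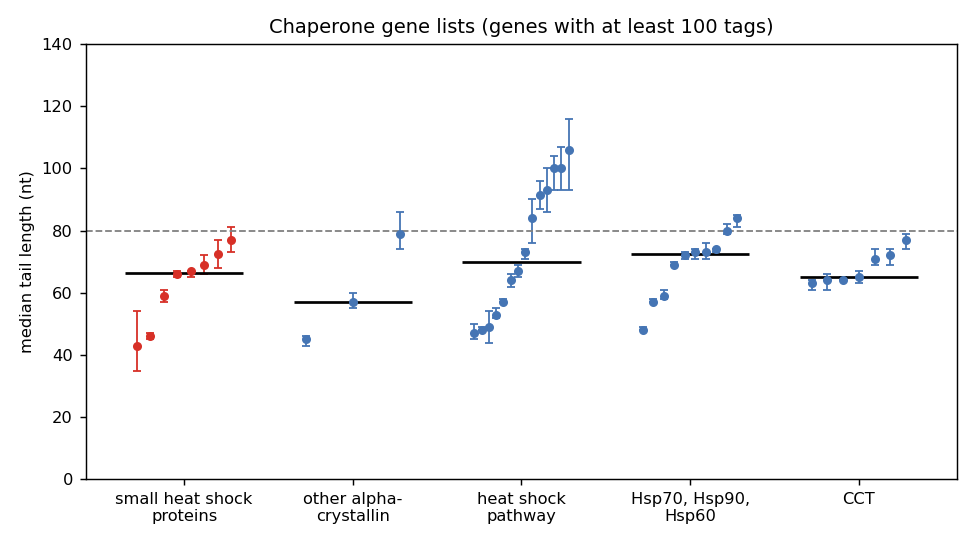
Median tail length (nt) of each gene with at least 100 tags in 5 lists, with 95% intervals over tags as error bars; black bars are list medians and the dashed line is the median over all genes, 80 nt. The 8 small heat shock protein genes (red) centre on 66.5 nt and run from 43 to 77 nt, the CCT genes from 63 to 77 nt, and the heat shock pathway up to 106 nt in hsf-1.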

How the data were processed

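Poly(A) tails were measured by mTAIL-seq in 2 libraries of 1 group. Per the labels' protocols, a splint oligonucleotide favoured ligation of RNAs that end in poly(A), the RNA was partially digested with RNase T1 and selected for 250 to 1000 nt, and tailseeker2 called tail lengths from a MiSeq run of 51 and 251 cycles. STAR and bedtools are named in the submitters' processing notes, without version or role. The genome build, the annotation and any collapsing of duplicates are not stated. The deposited counts are tags per gene, not normalized and pooled over both replicates, with the list of tail lengths in nt; recomputed counts, means, medians and SDs differed from the table in 0 of 13601 genes. Depth per replicate is unknown.

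Each gene's median was given with an exact 95% order-statistic interval over its tags (Python 3.11.15, SciPy 1.17.1), checked on simulated data with independent tags. That check did not cover PCR copies, pooled replicates or uneven mixing along the lists. Percentiles are over genes with at least 100 tags, with ties counted at their midpoint. The design asked for 50 tags in each replicate, taken as 100 over the pool. RefSeq's table for WBcel235 gave names and neighbours only. Named genes were the 10 members, fixed lists of other alpha-crystallin, heat shock pathway, Hsp70, Hsp90 and Hsp60 and CCT genes, and the nearest gene of each member with at least 1000 tags. Members and lists were chosen with earlier results of these data known. Alternatives were means, log2 means, tails of at least 20 nt, no tails at 231 nt, other tag minimums and another centre. Protein and promoter sequences were not used here.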

Additional observations from a re-analysis of the deposited data

How the results depend on the processing

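No paired analysis was possible because the table pools both replicates of its only group, and leaving out a replicate was not run for the same reason. Dropping tails under 20 nt or tails at 231 nt moved no member's value outside its interval. With means the members read 81.9 nt (hsp-12.1), 70.3 nt (hsp-12.2), 66.6 nt (hsp-16.1), 83.7 nt (hsp-16.2), 56.7 nt (hsp-16.41), 70.5 nt (hsp-25), 72.6 nt (hsp-43) and 54.2 nt (sip-1), with a member median of 70.4 nt. With means of log2(tail length + 1) those outside the interval of the median were hsp-12.1 (72.5 nt), hsp-12.2 (63 nt), hsp-16.1 (57 nt), hsp-25 (62.9 nt), hsp-43 (63.3 nt) and sip-1 (48.8 nt), with a member median of 62.9 nt. Under both kinds of mean hsp-16.2 no longer lay below the centre over genes, which left 6 members below, and hsp-16.1 was no longer short. A minimum of 400 tags lowered the centre to 76 nt: hsp-16.2 then included it, 5 of 7 members lay below and 1, sip-1, was short. With all listed genes the centre was 82 nt and 8 of 9 lay below, hsp-12.1 included. Centred on the median over all tags, 58 nt, 2 members lay below, 5 above and 0 were short. The cause of these shifts was not tested, and shares over all genes were not counted at these alternative centres. The depth limits hsp-12.3, with 17 tags, and hsp-16.41, with 107.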

Other observations

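The tail lengths in the deposited lists were not evenly mixed along the list. When each member's list was divided into 10 consecutive parts in the order deposited, the medians of the parts ran from 43 to 55 nt in sip-1, a range of 12 nt, and from 55.5 to 78 nt in hsp-25. They ran from 51 to 109 nt in hsp-16.2, a range of 58 nt, and from 29 to 91 nt in hsp-16.41, a range of 62 nt with about 10 tags in each part. In hsp-16.48 the last part had a median of 96 nt and the other parts medians of 34 to 58 nt. In hsp-16.1 the first and the sixth part had the highest medians, 72 and 83 nt. The same parts were highest in hsp-16.2, at 96 and 109 nt, and in hsp-43, at 81 and 82 nt. The first and the fifth part were highest in hsp-12.1, hsp-25 and sip-1, and the last part was highest in hsp-12.2 and hsp-16.41. Over the 2051 genes with at least 1000 tags the median range was 37 nt. What the order of the lists records is not stated, and its part in the medians was not tested.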
